A study of Homo sapiens with 6 samples.

Results

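The sirtuin family was described here through its 7 human genes, SIRT1 to SIRT7. They were selected by name, as the entries of the deposited gene table called SIRT1, SIRT2, SIRT3, SIRT4, SIRT5, SIRT6 or SIRT7. This gave 7 of the 35856 genes listed, and all 7 were among the 20741 genes with enough counts to be tested. RNA sequencing covered 3 libraries of HCCLM3 cells transfected with a vector carrying LINC00862, a long non-coding RNA, and 3 libraries of HCCLM3 cells transfected with the vector alone. The latter group is called Empty here and NC in the sample labels. HCCLM3 is an established line from human hepatocellular carcinoma, and the labels call it hepatoma. Both groups carried a vector, and pcDNA3.1 was the backbone named for the overexpression of LINC00862 in these cells. The labels speak of transfected cells, while the study elsewhere describes stable transfection, and which applies here is not stated. The labels do not say that the libraries of a group came from separate cultures. The p-values therefore measure only the spread between these libraries, which may be technical. Polyadenylated RNA was sequenced in paired-end, stranded libraries with molecular barcodes, and the total counts were 59648337, 58241123 and 59243210 in Empty libraries 1, 2 and 3 and 68229070, 58781905 and 58913560 in LINC00862 libraries 1, 2 and 3.

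Sirtuins are enzymes that remove acyl groups from lysines of other proteins and use up NAD in doing so, releasing nicotinamide, which in turn inhibits them. SIRT1, SIRT6 and SIRT7 act in the nucleus, SIRT2 acts mainly in the cytosol, and SIRT3, SIRT4 and SIRT5 act in mitochondria. In liver cells they are known for tying the supply of NAD to gluconeogenesis, fatty acid oxidation, the urea cycle and the state of chromatin. LINC00862 has been linked in other cancers to SIRT1 through competition for microRNAs, so the comparison asks how each sirtuin transcript stood in cells given LINC00862.

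The label was checked first. LINC00862 (ENSG00000203721) was counted 11, 21 and 6 times in Empty libraries 1, 2 and 3 and 145, 121 and 76 times in the other group. Each LINC00862 library was above each Empty library, as its label says, but the level was low in both groups. The mean of this gene was 0.0507 FPKM in Empty and 0.449 FPKM in LINC00862 (FPKM is a level scaled by transcript length and sequencing depth). The log2 fold change was 3.22 (SE 0.53, adjusted p = 0.000583). Adjusted p here and in what follows came from edgeR, by quasi-likelihood with Benjamini-Hochberg correction, unless another tool is named.

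Markers of cell type differed between the groups, and their part in the sirtuin results was not tested. Of 13 hepatocyte markers, 11 were tested, and 8 of them were higher and 3 lower in LINC00862. Among all tested genes 34.4% were higher and 29.8% lower, which stands beside the counts of this and the other marker lists. The summed FPKM of the hepatocyte markers was 4.88, 4.84, 5.31 (Empty 1 to 3) against 925, 888, 809 (LINC00862 1 to 3), with FGB, a fibrinogen chain, the most abundant in both groups. Several defining hepatocyte genes were close to absent in Empty and low in LINC00862 too. ALB, which encodes albumin, had counts of 0, 0 and 7 against 423, 394 and 282, TTR had 0 in each Empty library against 71, 93 and 50, HNF4A had 0, 0 and 4 against 34, 24 and 14, and APOA2 had at most 3 in any of the 6 libraries. The markers called lower were AFP, the fetal liver protein, with counts of 14, 24 and 30 against 0 in each LINC00862 library, SERPINA1 (1.29 and 0.0950 FPKM) and ASGR1 (0.457 and 0.0766 FPKM).

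Of 11 epithelial markers, 8 were higher and 2 lower in LINC00862, and their summed FPKM was 203, 243 and 294 in Empty against 701, 663 and 572, led by the keratin gene KRT18. The number lower was 1 with DESeq2, upper quartile scaling or the replicate block and without Empty replicate 2 or any LINC00862 replicate, where OCLN (-0.42, adjusted p = 0.0491) lost its call. Without Empty replicate 1 OCLN lost its call too (-0.26, adjusted p = 0.0757). KRT8 gained a call as lower there (-0.42, adjusted p = 0.0357), so the number stayed at 2. KRT18 (0.67, adjusted p = 0.0193) lost its call without Empty replicate 2 or LINC00862 replicate 1 (0.67 and 0.63). Of 12 mesenchymal markers, 10 were lower and 1 higher, and their summed FPKM was 829, 858 and 857 in Empty against 16.6, 16.7 and 21.2. VIM, the gene of vimentin, led this list in Empty and COL1A1 led it in LINC00862, where TWIST1 had counts of 0, 8 and 0. Of 6 leukocyte and endothelial markers, 2 were higher, and their summed FPKM was 3.55, 3.21 and 3.81 in Empty against 11.3, 12.8 and 9.47, led by CD14. VIM had a mean of 539 FPKM in Empty and 3.77 FPKM in LINC00862, and EPCAM, an epithelial surface protein gene, 0.547 and 160 FPKM. Over the tested genes, the rank correlation of FPKM was 0.969 to 0.983 between libraries of a group and 0.719 to 0.733 between the groups. The labels give HCCLM3 for both groups, and whether their cells differed in more than LINC00862 was not tested, which bears on each LINC00862 over Empty value given here. What in a sirtuin difference goes with LINC00862 and what goes with the markers cannot be told apart. In bulk RNA, fewer cells carrying a transcript and less of it per cell cannot be told apart either.

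The sirtuin genes lie on 6 chromosomes, and the positions are those of the deposited table (hg38). The nuclear members are SIRT1 (ENSG00000096717) at chr10:67884656-67918390 on the plus strand, SIRT6 (ENSG00000077463) at chr19:4174109-4182566 on the minus strand and SIRT7 (ENSG00000187531) at chr17:81911939-81918176 on the minus strand. SIRT2 (ENSG00000068903) lies at chr19:38878555-38899862 on the minus strand. The mitochondrial members are SIRT3 (ENSG00000142082) at chr11:215030-236859 on the minus strand, SIRT4 (ENSG00000089163) at chr12:120302316-120313249 on the plus strand and SIRT5 (ENSG00000124523) at chr6:13574529-13615158 on the plus strand. SIRT2 and SIRT6 share a chromosome but lie far apart on it.

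Promoter windows of 250 bases before and 50 bases after the start site were matched in RefSeq (GRCh38.p14) for 6 of the 7 genes, all but SIRT7. The windows of SIRT1, SIRT2 and SIRT5 are printed because these 3 transcripts differed between the groups in the results that follow. They lie at chr10:67884406-67884705 (plus strand), chr19:38899569-38899868 (minus strand) and chr6:13574279-13574578 (plus strand), and capitals mark the motifs named after them.
SIRT1: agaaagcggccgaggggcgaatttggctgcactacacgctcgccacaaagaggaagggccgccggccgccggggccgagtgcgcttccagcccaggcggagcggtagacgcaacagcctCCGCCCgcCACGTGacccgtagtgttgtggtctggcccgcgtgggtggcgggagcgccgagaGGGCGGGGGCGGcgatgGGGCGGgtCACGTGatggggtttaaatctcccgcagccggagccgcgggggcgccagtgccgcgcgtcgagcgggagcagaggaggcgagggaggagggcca
SIRT2: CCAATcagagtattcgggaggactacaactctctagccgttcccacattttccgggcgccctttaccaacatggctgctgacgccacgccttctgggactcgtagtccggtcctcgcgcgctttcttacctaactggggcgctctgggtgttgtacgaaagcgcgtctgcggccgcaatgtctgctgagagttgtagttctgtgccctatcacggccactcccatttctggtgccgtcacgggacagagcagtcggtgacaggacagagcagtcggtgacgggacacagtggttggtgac
SIRT5: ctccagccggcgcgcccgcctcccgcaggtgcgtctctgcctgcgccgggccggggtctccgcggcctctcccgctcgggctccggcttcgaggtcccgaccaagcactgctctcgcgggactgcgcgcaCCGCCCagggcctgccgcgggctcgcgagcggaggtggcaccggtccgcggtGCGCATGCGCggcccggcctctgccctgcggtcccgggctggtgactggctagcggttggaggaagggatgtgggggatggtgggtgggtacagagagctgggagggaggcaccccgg
The motifs were chosen after the sequences had been seen, both strands were searched, and a match describes letters and not a bound site. The SIRT1 window holds the E-box CACGTG at 2 places, at -123 and -44 from the start site, and the GC box GGGCGG at 4 places, of which 2 abut. CACGTG occurs in 7.20% of 34796 distinct RefSeq windows of this length and GGGCGG in 44.9%. The SIRT2 window holds the CCAAT box, CCAAT, once, at its far end, and 34.6% of the windows hold that motif. The SIRT5 window holds GGGCGG once on the opposite strand and GCATGCGC, the core of the NRF1 motif, on both strands in overlapping copies. GCATGCGC occurs in 2.99% of the windows, and the SIRT6 window has the same overlapping pair. The SIRT6 window also holds GGGCGG at 4 places and CCAAT at 1, and the SIRT3 window holds GGGCGG at 1 place.

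The remaining motifs searched were CCGGAAG, an ETS core found in 10.2% of the windows and in those of SIRT3 and SIRT6, and TGACGTCA, the cyclic AMP response element, found in 1.84% of the windows and in no matched sirtuin window. The share of G and C was 72.7% in the SIRT1 window, 76.3% in SIRT5, 69.3% in SIRT3, 65% in SIRT6, 58.7% in SIRT2 and 42.3% in SIRT4, against a median of 58.7% over all windows. SIRT4, the sirtuin with the lowest transcript level, thus also had the window poorest in G and C of the 6 matched. The RefSeq start of SIRT2 lies 244 bases inside the gene end given in the table, so its window describes that inner start.

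Among the nuclear sirtuins, SIRT1 deacetylates transcription factors such as the FOXO proteins. Its FPKM was 7.12, 4.91 and 4.33 in Empty libraries 1, 2 and 3 and 3.24, 3.27 and 2.90 in LINC00862 libraries 1, 2 and 3. Each Empty library lay above each LINC00862 library, and Empty library 1 stood apart from the other Empty libraries. The mean level fell from 5.45 ± 1.47 FPKM (SD, n = 3) to 3.14 ± 0.207 FPKM (SD, n = 3), and the exact two-sided permutation test had p = 0.1, the lowest value possible with 3 against 3. On the counts, SIRT1 was lower in LINC00862 with a log2 fold change of -0.61 (SE 0.17, adjusted p = 0.0128). With upper quartile scaling the log2 fold change was -0.39 and the call was lost (adjusted p = 0.0643), in a range of adjusted p from 0.00646 up to 1 over the alternatives. Without Empty replicate 1 it was -0.43 and the call was kept (adjusted p = 0.0176).

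SIRT6 binds chromatin and deacetylates histone H3. Its FPKM by library was 4.93, 6.88, 9.33 (Empty 1 to 3) against 10.1, 8.89, 8.39 (LINC00862 1 to 3). The groups overlapped, because Empty library 3 lay above LINC00862 libraries 2 and 3. Empty library 1 was the lowest of the 6. The mean was 7.05 ± 2.20 FPKM (SD, n = 3) for Empty against 9.11 ± 0.859 FPKM (SD, n = 3) for LINC00862 (exact permutation p = 0.3). SIRT6 had a log2 fold change of 0.53 (SE 0.25, adjusted p = 0.093), which did not pass the threshold of 0.05. Without Empty replicate 3 it was 0.83 and passed (adjusted p = 0.00874), without Empty replicate 1 it was 0.29, and with upper quartile scaling it was 0.73 (adjusted p = 0.0337, in a range from 0.00874 up to 1 over the alternatives), so the SIRT6 call depended on the Empty libraries used and on the scaling.

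SIRT7, a nucleolar deacetylase that associates with RNA polymerase I, showed the largest fall of the family. Its FPKM by library was 7.62, 10.3, 10.4 (Empty 1 to 3) against 3.36, 3.03, 3.25 (LINC00862 1 to 3). The groups were far apart, with the lowest Empty library more than 4 FPKM above the highest LINC00862 library. The mean level fell from 9.45 ± 1.59 FPKM (SD, n = 3) to 3.21 ± 0.169 FPKM (SD, n = 3), or to 34.0% of the Empty mean (exact permutation p = 0.1). The log2 fold change was -1.38 (SE 0.19, adjusted p = 0.000224), and SIRT7 was also called by a test against a fold change of 2 (adjusted p = 0.0279). That was the highest adjusted p of SIRT7 over the alternatives. The lowest was 6.60e-10, from DESeq2 in a test against no change.

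SIRT2, the mainly cytosolic member, deacetylates tubulin and enzymes of glucose metabolism. Its FPKM by library was 7.32, 6.62, 7.33 (Empty 1 to 3) against 4.03, 4, 3.83 (LINC00862 1 to 3). The libraries of each group lay close together and the groups did not overlap. The mean level fell from 7.09 ± 0.408 FPKM (SD, n = 3) to 3.95 ± 0.106 FPKM (SD, n = 3, exact permutation p = 0.1). The log2 fold change was -0.67 (SE 0.13, adjusted p = 0.00188). SIRT1 and SIRT2 thus had similar fold changes, and the difference between them was not tested.

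Of the mitochondrial sirtuins, SIRT5, which removes succinyl, malonyl and glutaryl groups from metabolic enzymes, was the only family member called higher by edgeR with TMM scaling on all 6 libraries. Its FPKM by library was 1.24, 1.32, 1.39 (Empty 1 to 3) against 3.51, 3.04, 3.06 (LINC00862 1 to 3). Each LINC00862 library had more than double the SIRT5 level of each Empty library. The mean rose from 1.32 ± 0.0771 FPKM (SD, n = 3) to 3.20 ± 0.262 FPKM (SD, n = 3, exact permutation p = 0.1), which was 244% of the Empty mean. The log2 fold change was 1.45 (SE 0.17, adjusted p = 7.45e-05), and SIRT5 was also called against a fold change of 2 (adjusted p = 0.0091). That was the highest adjusted p of SIRT5 over the alternatives. The lowest was 6.24e-17, from DESeq2 in a test against no change.

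SIRT3 is the main deacetylase of mitochondria. Its FPKM by library was 2.38, 2.76, 3.18 (Empty 1 to 3) against 3.10, 3.58, 3.23 (LINC00862 1 to 3). The groups overlapped on FPKM, with Empty library 3 above LINC00862 library 1, but not on counts scaled by TMM, where Empty reached 19.6 CPM and LINC00862 began at 20.2 CPM. The mean was 2.77 ± 0.401 FPKM (SD, n = 3) for Empty against 3.30 ± 0.246 FPKM (SD, n = 3) for LINC00862 (exact permutation p = 0.2). SIRT3 had a log2 fold change of 0.41 (SE 0.18, adjusted p = 0.0752) and was not called. It passed the threshold without Empty replicate 3 (0.56, adjusted p = 0.024), with DESeq2 (0.46, adjusted p = 0.0339) and with upper quartile scaling (0.62, adjusted p = 0.0184), in a range of adjusted p from 0.0184 up to 1 over the alternatives. Without Empty replicate 1 it was 0.27 (adjusted p = 0.127) and by library size 0.26 (adjusted p = 0.229).

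SIRT4, a mitochondrial sirtuin known for ADP-ribosylation and lipoamidase activity, had the lowest level of the family in both groups. Its counts were 68, 71, 83 (Empty 1 to 3) against 106, 64, 95 (LINC00862 1 to 3), so counting error weighs more on SIRT4 than on the other sirtuins. Its FPKM was 0.832, 0.874 and 1.01 in Empty and 1.12, 0.791 and 1.14 in LINC00862. The groups overlapped, LINC00862 library 2 being the lowest of the 6. The log2 fold change of SIRT4 was 0.35 (SE 0.35, adjusted p = 0.414, exact permutation p = 0.4 on FPKM), and no alternative called it. A difference of the size seen for SIRT1 could have gone undetected in SIRT4 at this depth.

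In all, 4 of the 7 sirtuins were called, against 64.2% of all tested genes. SIRT5 was called higher (1 of 7, against 34.4% of tested genes) and SIRT1, SIRT2 and SIRT7 lower (3 of 7, against 29.8%). The FPKM of the groups did not overlap for the same 4 of 7, against 71.1% of tested genes. By the test against a fold change of 2, SIRT5 and SIRT7 were called (2 of 7, against 38.6%). With DESeq2, where SIRT3 passed too, 5 sirtuins were called. With upper quartile scaling 5 were called, since SIRT3 and SIRT6 passed and SIRT1 did not, and without Empty replicate 3, 6 were, since SIRT3 and SIRT6 passed. Of all tested genes, 13722, 13351 and 13540 were called in these fits. With edgeR and TMM on all 6 libraries, the share of sirtuins called was close to that of genes at large, and nothing about the family is read from the count.

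The sizes of the sirtuin changes were set beside those of all tested genes. These were not matched to the sirtuins in level, and nothing about the family is read from the comparison. Among all tested genes, the absolute log2 fold change had a median of 1.16. SIRT5 had a larger absolute change than 58% of the tested genes and SIRT7 than 56.3%, while SIRT2 exceeded 31.9%, SIRT1 29.7%, SIRT6 25.8%, SIRT3 20.4% and SIRT4 17.3%. Over all tested genes the log2 fold change had a median of 0.11 under TMM scaling, and it moved by 0.21 with upper quartile scaling and by -0.16 with scaling by library size only. Relative to that median, SIRT1 stood at -0.72 with TMM and upper quartile scaling and at -0.73 by library size, SIRT5 stood at 1.34 under each of these scalings, and SIRT7 stood between -1.50 and -1.49. SIRT3 stood at 0.30, 0.30 and 0.31 and SIRT6 at 0.42, 0.41 and 0.43. A change of scaling moves all genes by nearly the same amount, so these distances are fixed by construction and say nothing of stability.

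**Figure D1:**
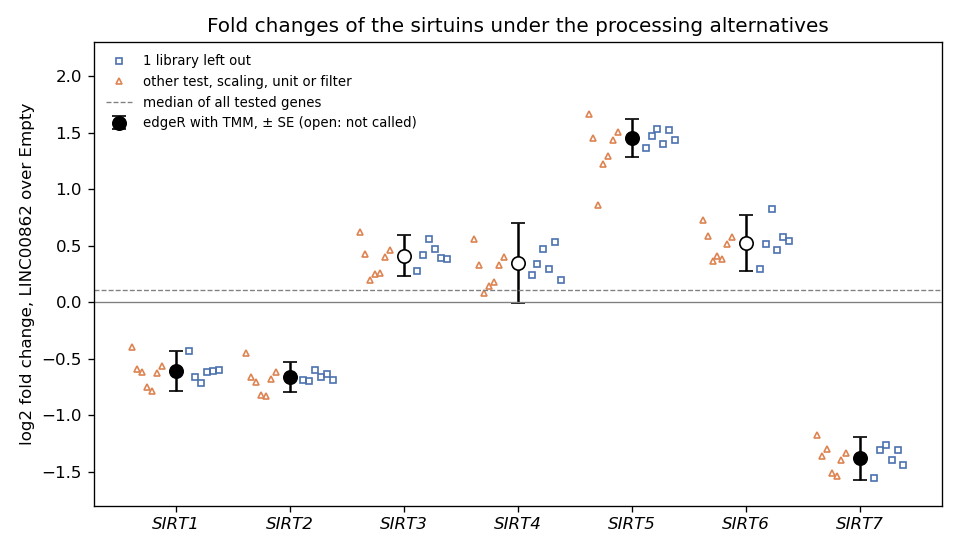
Log2 fold change of each sirtuin in LINC00862 over Empty (y axis); circles are edgeR estimates ± SE, filled where the adjusted p is under 0.05, squares leave out 1 library each, and triangles are the other tests, scalings, units and filters. SIRT1, SIRT2 and SIRT7 stay below 0 and SIRT3, SIRT4, SIRT5 and SIRT6 above 0 under each alternative drawn.

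FPKM is meant to be scaled by transcript length, so the sirtuins can be ordered within a group only as far as the lengths behind the deposited values hold. The lengths implied by count, FPKM and total count in Empty library 1 were 3063 bases for SIRT6, 6827 for SIRT7 and 6923 for SIRT2. The value for SIRT7 is longer than the whole gene by the positions given above, so it cannot be a transcript length as such. How the deposited FPKM was scaled for each gene is not known here. Other lengths could change the order, the shares and the compartment sums that follow. By the deposited FPKM, SIRT7 led the family in Empty, followed by SIRT2, SIRT6 and SIRT1, then SIRT3, SIRT5 and SIRT4. The ranges of SIRT2 and SIRT6 overlapped, as did those of SIRT6 and SIRT1, while those of the other neighbours in the order did not. In LINC00862, SIRT6 came first with a mean of 9.11 FPKM, followed by SIRT2 with 3.95 FPKM. SIRT3, SIRT7, SIRT5 and SIRT1 followed between 3.14 and 3.30 FPKM, each overlapping its neighbour, and SIRT4 was last with 1.02 FPKM. SIRT7 thus went from first to a level shared with SIRT1, SIRT3 and SIRT5, and SIRT5 reached that same level from below.

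The summed sirtuin level was 31.4, 33.6 and 37.0 FPKM for Empty 1 to 3 against 28.4, 26.6 and 25.8 FPKM for LINC00862 1 to 3. The groups did not overlap on FPKM. After dividing by the TMM factor of each library, which corrects for the share taken by a few abundant genes, the sums were 27.8, 32.8 and 36.2 against 29.7, 26.9 and 29, and the groups overlapped. The 10 most abundant genes took 8.42%, 11.7% and 9.55% of the counts in Empty and 20.2%, 19.4% and 29.2% in LINC00862. Whether the groups separate in the sum of sirtuin transcripts therefore depended on the scaling of the libraries.

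The share of each sirtuin in the summed FPKM of its own library does not depend on that scaling. SIRT7 held 27.7% ± 3.21 (SD, n = 3) of the sirtuin transcripts in Empty and 11.9% ± 0.600 in LINC00862. SIRT6 held 20.4% ± 4.76 in Empty and 33.8% ± 1.48 in LINC00862, and SIRT2 went from 20.9% ± 2.06 to 14.7% ± 0.445. SIRT5 went from 3.87% ± 0.0988 to 11.9% ± 0.451, SIRT3 from 8.13% ± 0.520 to 12.3% ± 1.28 and SIRT4 from 2.66% ± 0.0619 to 3.78% ± 0.738. The groups did not overlap in these shares (exact permutation p = 0.1 for each), which include SIRT3, SIRT4 and SIRT6, not called on the counts. No share over all genes stands beside this, and nothing about the family is read from it. The share of SIRT1 was 16.3% ± 5.67 in Empty and 11.6% ± 0.579 in LINC00862, and the groups overlapped (exact permutation p = 0.2). That difference of -4.67 percentage points was -1.50 without Empty replicate 1. The 7 shares of a library add up to a whole, so they are not independent of each other.

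By compartment, the mitochondrial SIRT3, SIRT4 and SIRT5 together held 14.1%, 14.7% and 15.1% of the sirtuin FPKM for Empty 1 to 3 against 27.2%, 27.8% and 28.8% for LINC00862 1 to 3. SIRT5 made up the largest piece of that difference, with 8.01 percentage points, against 4.16 for SIRT3 and 1.13 for SIRT4. The nuclear SIRT1, SIRT6 and SIRT7 together held 62.6%, 65.6% and 65.1% in Empty and 58.6%, 57.1% and 56.3% in LINC00862. Within the nuclear members the balance turned, since SIRT7 lost 15.7 percentage points while SIRT6 gained 13.3. The grouping by compartment was made with the values known and is given without a test.

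**Figure D2:**
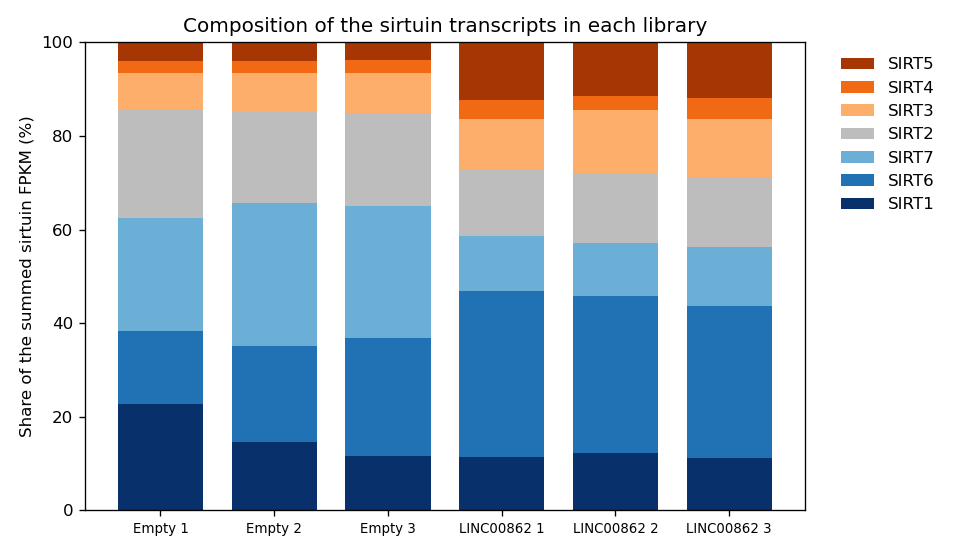
Share of each sirtuin in the summed sirtuin FPKM of a library (y axis, %), for the 3 Empty and 3 LINC00862 libraries (bars). Blue marks nuclear members, grey SIRT2 and orange the mitochondrial members, whose combined share goes from about 15.1% or less in Empty to at least 27.2% in LINC00862.

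The Empty libraries differed more among themselves than the LINC00862 libraries. The coefficient of variation of FPKM was larger in Empty for 5 of the 7 sirtuins, the exceptions being SIRT4 and SIRT5, and for 64.1% of all tested genes. It reached 31.3% for SIRT6 and 27.0% for SIRT1 in Empty, against 9.42% and 6.59% in LINC00862. SIRT1 was highest in Empty library 1, where SIRT3, SIRT4, SIRT5, SIRT6 and SIRT7 were lowest of the 3 Empty libraries.

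The genes next to the sirtuins were taken from the coordinates of the table, and 11 of the 18 were tested, of which 2 were higher, 5 lower and 4 not called, beside 34.4% higher and 29.8% lower among all tested genes. Whether the counting used the strand is not given in the sources used here, so reads in stretches where genes overlap on opposite strands cannot be assigned with certainty. SIRT2 overlaps NFKBIB, the gene of an inhibitor of NF-kappa-B, by 163 bases on the opposite strand, and the start of NFKBIB lies 82 bases from the RefSeq start of SIRT2. NFKBIB had a log2 fold change of 0.46 (SE 0.18, adjusted p = 0.0502), on the other side of 0 from SIRT2, and it passed the threshold without Empty replicate 3 (0.59, adjusted p = 0.0201) without LINC00862 replicate 3 (0.57, adjusted p = 0.0354) with upper quartile scaling (0.66, adjusted p = 0.0105) and with DESeq2 (0.51, adjusted p = 0.0193). RINL, 279 bases beyond the 3′ end of SIRT2, was higher with a log2 fold change of 6.26 (SE 0.24, adjusted p = 1.02e-07), and CCER2 on the far side had 1.58 (adjusted p = 0.0597), and passed without Empty replicate 3 (2.19, adjusted p = 0.0254) with upper quartile scaling (1.79, adjusted p = 0.0413), with DESeq2 (1.63, adjusted p = 0.0406) and with limma on log2(FPKM + 0.1). SIRT2 was thus lower between genes that were not called lower.

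SIRT3 overlaps RIC8A by 84 bases on the opposite strand and starts 107 bases from PSMD13, a proteasome subunit gene read in the other direction, by the same table. GENCODE 29 places the 3′ end of SIRT3 at 215458, clear of the RIC8A end in the table. RIC8A was lower with a log2 fold change of -1.47 (SE 0.14, adjusted p = 2.28e-05) and PSMD13 with -0.63 (SE 0.18, adjusted p = 0.0138), whereas SIRT3 had a positive value that was not called. The PSMD13 call was lost without LINC00862 replicate 3 (-0.60, adjusted p = 0.0522) and with upper quartile scaling (-0.43, adjusted p = 0.0779). NOL7, 176 bases downstream of SIRT5 on the same strand, was lower with a log2 fold change of -0.91 (SE 0.19, adjusted p = 0.00227), opposite to SIRT5. At SIRT6, ANKRD24 starts 788 bases away in the other direction and was higher with 2.63 (SE 0.54, adjusted p = 0.00214), at a mean of only 0.221 FPKM in LINC00862, and CREB3L3 was not tested.

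SIRT7 lies 520 bases from PCYT2 and 93 bases from MAFG, both on its strand, by the coordinates of the deposited table. GENCODE 29 places the 5′ end of SIRT7 at 81921323, beyond the 3′ end of MAFG in the table, so the genes overlap there and reads of that stretch cannot be assigned with certainty. PCYT2 was lower with a log2 fold change of -0.64 (SE 0.15, adjusted p = 0.00415), and MAFG had -0.07 (SE 0.20, adjusted p = 0.777). At SIRT1, HERC4 was lower with -1.38 (SE 0.17, adjusted p = 0.000101), and the ribosomal protein pseudogene RPL12P8 had -0.55 (SE 0.71, adjusted p = 0.519). The tested neighbours of SIRT1 and SIRT7 thus held a called fall on one side only, and SIRT5 and its tested neighbour NOL7 were called in opposite directions. The neighbours of SIRT4 (RNU6-1088P, RNU4-1 and PLA2G1B) had too few counts to be tested, as had MIR6743 near SIRT3 and RPS4XP7 and AL441883 near SIRT5.

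**Figure D3:**
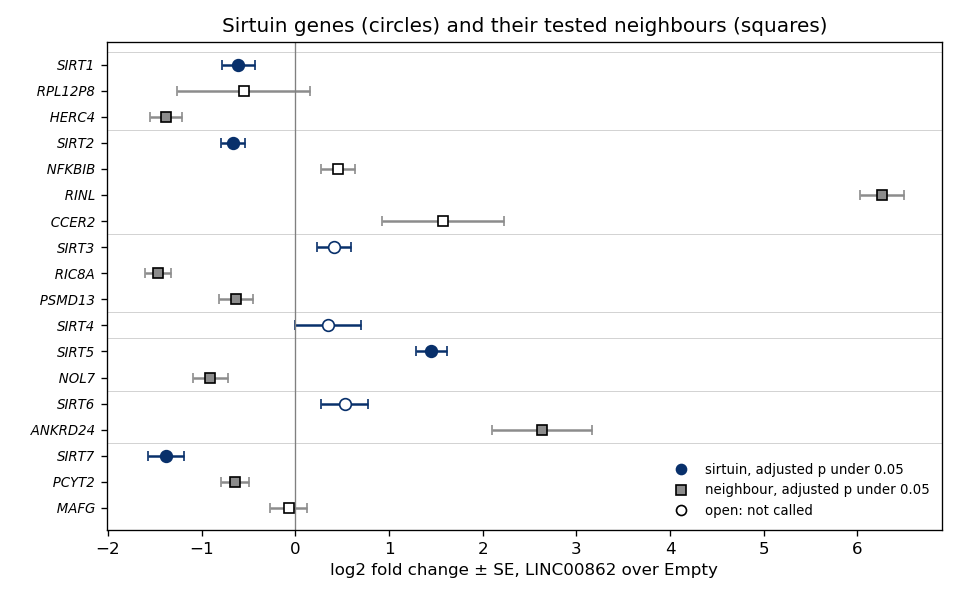
Log2 fold change ± SE in LINC00862 over Empty (x axis) of each sirtuin (circles) and of its tested neighbours (squares), filled where the adjusted p is under 0.05. SIRT5 at 1.45 stands opposite NOL7 at -0.91, and SIRT2 at -0.67 opposite RINL at 6.26.

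Sirtuins depend on NAD, and the genes that make it were the first list set beside them. Of 13 tested genes of NAD synthesis, 8 were higher, 1 was lower and 4 were not called (2 lower without LINC00862 replicate 2, where IDO1 passed, and 7 to 10 higher with a library left out), with a median log2 fold change of 0.92 against 0.11 for all tested genes. Beside the counts for this and the following lists, 34.4% of all tested genes were higher and 29.8% lower, and nothing particular to a list is read from them. NAMPT, the rate-limiting enzyme that returns the nicotinamide released by sirtuins to NAD, went from 9.50 ± 1.91 to 28.9 ± 1.43 FPKM (SD, n = 3; log2 fold change 1.79, SE 0.16). The largest rises included 2 genes of the route from tryptophan, QPRT with a log2 fold change of 8.15 (SE 0.25, adjusted p = 4.07e-08) and KYNU with 8.04 (SE 0.19, adjusted p = 2.63e-08). The other was NMNAT3, the mitochondrial adenylyltransferase, with counts of 4, 0 and 0 in Empty and 370, 320 and 304 in LINC00862. The tryptophan route did not rise as a whole. KMO was higher too (7.62, SE 0.30), but AFMID (0.43, adjusted p = 0.0559) and IDO1 (-2.66, adjusted p = 0.0681) were not called by edgeR with TMM on all 6 libraries. TDO2 and HAAO had too few counts to be tested. NAPRT, which starts the route from nicotinic acid, was lower, at 19.4 ± 4.56 FPKM in Empty and 5.78 ± 0.345 in LINC00862 (log2 fold change -1.58, SE 0.22, adjusted p = 0.000258). NMNAT1, the nuclear adenylyltransferase that supplies SIRT1, SIRT6 and SIRT7, was not called (0.24, SE 0.23). The hepatocyte markers described above differed in the same libraries, and their part was not tested.

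Of 11 tested genes that consume NAD or clear nicotinamide, 4 were higher, 3 lower and 4 not called, with a median of -0.01, which ranged from -0.19 by library size to 0.33 without Empty replicate 1, where 5 were higher. Only 2 were higher without Empty replicate 2, LINC00862 replicate 1 or LINC00862 replicate 2, by library size and with the replicate block, because PARP1 and PARP3 lost their calls there. NNMT, which methylates nicotinamide and so removes it from recycling, went from 49.6 ± 12.4 to 1.87 ± 0.286 FPKM (log2 fold change -4.57, SE 0.25, adjusted p = 8.03e-07). ACMSD, which diverts the tryptophan route away from NAD, was higher with 7.95 (SE 0.34, adjusted p = 1.78e-07), and NADK2, the mitochondrial NAD kinase, with 2.63 (SE 0.15, adjusted p = 9.14e-07). BST1 was lower with -2.29 (SE 0.60, adjusted p = 0.00821) and PARP2 with -1.14 (SE 0.13, adjusted p = 8.04e-05). PARP1, which competes with sirtuins for NAD in the nucleus, had 0.58 (SE 0.21, adjusted p = 0.0351), and its call was lost by library size (0.42, adjusted p = 0.157) and without Empty replicate 2 or 3 or LINC00862 replicate 1 or 2, with log2 fold changes from 0.45 to 0.63. PARP3, a related polymerase, had 0.44 (SE 0.15, adjusted p = 0.0267), and its call was lost by library size (0.28, adjusted p = 0.161) and without Empty replicate 2 or any LINC00862 replicate (0.42 to 0.47).

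Of 10 genes known to regulate SIRT1, 2 were higher, 5 lower and 3 not called. Their median was -0.36, and -0.15 with upper quartile scaling. The number lower was 3 without LINC00862 replicate 1 or 3 and with upper quartile scaling, where USP22 (-0.41, adjusted p = 0.0446) and SENP1 (-0.70, adjusted p = 0.0372) both lost their calls. Without Empty replicate 1 both were lost as well and RPS19BP1, a SIRT1 activator, gained a call as lower (-0.56, adjusted p = 0.00435), which made 4. The number lower was also 4 with DESeq2, the replicate block and without Empty replicate 2 or 3 or LINC00862 replicate 2. In each of these fits USP22 or SENP1 lost its call. CCAR2, a protein that inhibits SIRT1, was lower with a log2 fold change of -1.09 (SE 0.15, adjusted p = 0.000167), as were E2F1, an activator of SIRT1 transcription, with -1.79 (SE 0.20, adjusted p = 5e-05) and ELAVL1, which binds the SIRT1 mRNA, with -0.86 (SE 0.14, adjusted p = 0.000503). PRKAA2 and PRKAA1, the catalytic subunits of the AMP-activated kinase that acts upstream of SIRT1, were higher with 5.64 (SE 0.24, adjusted p = 1.67e-07) and 1.47 (SE 0.21, adjusted p = 0.00026). Genes that restrain SIRT1 and genes that raise its expression were thus both among those that fell, while the upstream kinase rose. HIC1, a repressor of SIRT1, was not called (-0.24, SE 0.41).

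Of 17 tested SIRT1 substrates, 5 were higher, 9 lower and 3 not called, with a median of -0.50. The median was -0.66 by library size and -0.29 with upper quartile scaling. With the latter 8 were lower, since ACSS2 (-0.50, adjusted p = 0.0109) lost its call (-0.29, adjusted p = 0.0918). The highest rises were PPARGC1A, the PGC-1-alpha coactivator of gluconeogenesis and mitochondrial genes, with 7.22 (SE 0.20, adjusted p = 2.94e-08), FOXO1 with 2.61 (SE 0.20, adjusted p = 5.09e-06) and CRTC2 with 1.46 (SE 0.14, adjusted p = 1.99e-05). ATG5, an autophagy gene, was lower with -2.19 (SE 0.15, adjusted p = 2.87e-06) and FOXO3 with -2.10 (SE 0.23, adjusted p = 5.65e-05). FOXO1 and FOXO3, closely related substrates of SIRT1, were therefore called in opposite directions.

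Of 8 SIRT2 substrates and partners, 6 were lower, 1 higher and 1 not called, with a median of -1.96. CDC20 and BUB1B, which act at the mitotic checkpoint, were lower with -3.98 (SE 0.23, adjusted p = 1.01e-06) and -2.64 (SE 0.15, adjusted p = 1.09e-06). HDAC6, a tubulin deacetylase that works with SIRT2, was lower with -2.74 (SE 0.16, adjusted p = 1.08e-06). PCK1, the gluconeogenic enzyme, had counts of 0, 0 and 3 in Empty and 116, 119 and 77 in LINC00862, a ratio of 111 with a 95% counting interval from 37.6 to 541 (exact binomial, counting error only). SIRT2 and most of its listed substrates were thus lower in the same libraries.

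Of 16 tested substrates of SIRT3, SIRT4 and SIRT5, 10 were higher, 1 lower and 5 not called, with a median of 0.95. CPS1, the urea cycle enzyme desuccinylated by SIRT5 and also among the hepatocyte markers, went from 1.3 ± 0.215 to 305 ± 34.2 FPKM (log2 fold change 8.04, SE 0.22, adjusted p = 2.95e-08). ACADL, an acyl-CoA dehydrogenase deacetylated by SIRT3, had counts of 4, 0 and 0 in Empty against 539, 456 and 410 in LINC00862. Among SIRT3 substrates present in both groups, IDH2 and SOD2 were higher with 1.26 (SE 0.17) and 1.77 (SE 0.14). The listed ACADVL (0.28), HADHA (0.38), OPA1 (0.03) and PPIF (-0.05), also present in both groups, were not called, although HADHA passed without LINC00862 replicate 3 (0.53, adjusted p = 0.0214) and with upper quartile scaling or DESeq2, as ACADVL did with those 2. ALDH2 was the listed substrate called lower, with -1.70 (SE 0.26, adjusted p = 0.00043). GLUD1, a SIRT4 substrate, was not called (-0.0005, SE 0.15, adjusted p = 0.998). MLYCD and DLAT of the same list were higher with 2.73 (SE 0.21, adjusted p = 6.19e-06) and 0.68 (SE 0.15, adjusted p = 0.00322). SIRT5 and its substrate CPS1 rose together, CPS1 far more than SIRT5.

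Of 14 genes of RNA polymerase I and other partners of SIRT7, 5 were lower, 3 higher and 6 not called, with a median of -0.07, which was 0.14 with upper quartile scaling. With that scaling 6 were higher, and by library size 1 was. POLR1E, the polymerase I subunit PAF53 that SIRT7 deacetylates, was lower with -2.35 (SE 0.15, adjusted p = 1.56e-06), RRP9, a SIRT7 substrate in pre-rRNA processing, with -1.63 (SE 0.25, adjusted p = 0.000367) and TAF1D with -0.94 (SE 0.18, adjusted p = 0.00137). Some calls in both directions depended on the fit. TAF1B was lower with -0.72 (SE 0.21, adjusted p = 0.0149). That call was lost with upper quartile scaling (-0.51, adjusted p = 0.0574) and without LINC00862 replicate 1 (-0.65, adjusted p = 0.0664). ELK4, which brings SIRT7 to promoters, had 0.76 (SE 0.24, adjusted p = 0.0187), lost by library size (0.58, adjusted p = 0.0886) and without Empty replicate 2 or 3 or LINC00862 replicate 2 or 3 (0.61 to 0.76). TAF1C had 0.76 (SE 0.21, adjusted p = 0.0117), lost without LINC00862 replicate 3 (0.64, adjusted p = 0.0526), and RRN3 had 0.43 (SE 0.15, adjusted p = 0.0293), lost without any library but Empty replicate 1 (0.34 to 0.45) and by library size (0.25, adjusted p = 0.228). The polymerase subunits POLR1A, POLR1B, POLR1C and POLR1D were not called, although POLR1B (0.46, adjusted p = 0.0533) passed with DESeq2 (0.51, adjusted p = 0.0221), without Empty replicate 1 (0.63, adjusted p = 0.00621) and without LINC00862 replicate 3 (0.56, adjusted p = 0.0491), and POLR1B (0.68) and POLR1C (0.46) passed with upper quartile scaling.

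The zinc-dependent histone deacetylases, which share substrates with the sirtuins but do not use NAD, were set beside them as the other deacetylase family. Of 11 genes, 8 were lower, 2 higher and 1 not called, with a median of -0.97, beside 29.8% lower and 34.4% higher among all tested genes. The number lower was 6 with upper quartile scaling, with the replicate block and without any library but Empty replicate 1, because HDAC5 (-0.44, adjusted p = 0.0482) and HDAC11 (-0.60, adjusted p = 0.0475) lost their calls. Of the 7 sirtuins, 3 were lower and 1 higher, with a median of 0.35. The median here is the value of SIRT4, which was not called and had the lowest counts, so it says little of the family. That median was 0.20 without LINC00862 replicate 3 and 0.18 by library size. With upper quartile scaling it was 0.56, with 2 sirtuins lower and 3 higher. HDAC2 was lower with -2.85 (SE 0.14, adjusted p = 3.94e-07) and HDAC3 with -2.22 (SE 0.17, adjusted p = 6.49e-06), beyond the change of any sirtuin. HDAC4 was higher with 0.83 (SE 0.19, adjusted p = 0.00423), and HDAC9 had 1.41 (SE 0.52, adjusted p = 0.0385), a call lost by library size (1.21, adjusted p = 0.0824) and when any library but Empty replicate 1 was left out (0.99 to 1.44). The difference between the sirtuins and these deacetylases was not tested.

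**Figure D4:**
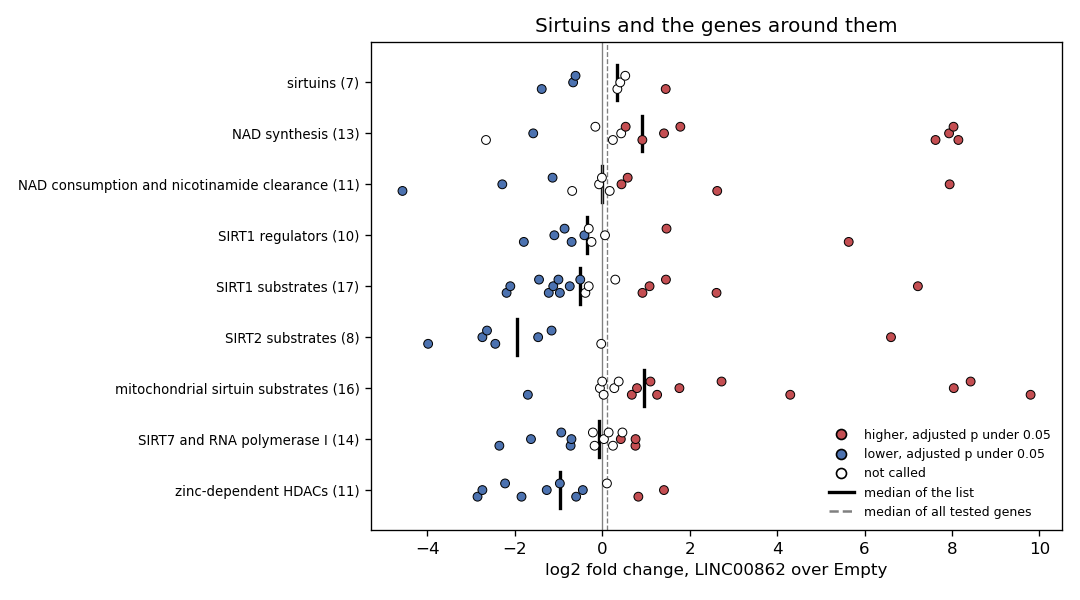
Log2 fold change in LINC00862 over Empty (x axis) of the tested members of each list (points, with the number tested in parentheses), red where higher and blue where lower at an adjusted p under 0.05 and white where not called; black bars are list medians and the dashed line is the median of all tested genes. The sirtuins lie between -1.38 and 1.45, and the SIRT2 substrates centre at -1.96.

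The genes with the profiles most like each sirtuin over the 6 libraries were found by the root mean square difference of centred log2 counts scaled by TMM. They were KDM6A (0.0332) and PTCD2 (0.0353) for SIRT1, and NCOA5 (0.0287) and UBE2E2 (0.0454) for SIRT2. SIRT3 was followed most closely by RABGGTA (0.0381) and AP5Z1 (0.0593), SIRT4 by LINC00672 (0.0434) and CTU1 (0.0775), and SIRT6 by PSENEN (0.0403) and MRPS34 (0.0459). SIRT5 was closest to TSPAN3 (0.0416) and to CRTC2 (0.056), the latter also among the listed SIRT1 substrates. SIRT7 was closest to NDUFB6 (0.0397) and DBI (0.0415). None of the genes named here as closest to a sirtuin was itself a sirtuin.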

How the data were processed

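The authors deposited, for each gene and library, a read count without normalization and an FPKM value, scaled by transcript length and library size. The submitters' processing notes name cutadapt 1.9, HISAT2 2.0.4, UMI-tools, StringTie 1.3.4d, DESeq2, edgeR and build hg38. Sample names tied each column of values to its library. The count model was edgeR 4.0.16 under R 4.3.3 (filterByExpr, TMM, quasi-likelihood test, Benjamini-Hochberg adjustment over all tested genes, threshold 0.05). FPKM was compared by exact two-sided permutation tests. Alternatives were DESeq2 1.42.0, upper quartile scaling, library size only, limma 3.58.1 on log2(FPKM + 1) and log2(FPKM + 0.1), all genes with at least 1 count, a test against a fold change of 2, a stricter threshold (0.01), a replicate block and leaving out each library. Within lists, up to 3 of the largest called rises and up to 3 of the largest called falls with a mean of at least 0.1 FPKM in a group were named, with members needed for a role, and not every gene meeting this rule is printed. The nearest and overlapping genes of each sirtuin and the 2 most similar profiles were also named. The members and lists were chosen with earlier results of these data known. Figures were drawn with matplotlib 3.10.9. Proteomics and other assays were not analysed here.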

Additional observations from a re-analysis of the deposited data

How the results depend on the processing

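Over 15 alternatives, SIRT5 and SIRT7 were called in each, SIRT2 in 14, SIRT1 in 12, SIRT3 in 3, SIRT6 in 2 and SIRT4 in 0, where every log2 fold change kept its direction. A test against a fold change of 2 no longer called SIRT1 (-0.61, adjusted p of 1) or SIRT2 (-0.67, adjusted p of 1), by its construction. SIRT1 (-0.61, adjusted p = 0.0128) also missed a threshold of 0.01, and with upper quartile scaling it was -0.39 (adjusted p = 0.0643). SIRT3 passed with DESeq2 (0.46, adjusted p = 0.0339) and SIRT3 and SIRT6 with upper quartile scaling (0.62 and 0.73, adjusted p of 0.0184 and 0.0337), and the cause was not tested. With 1 library left out, the log2 fold change ranged from -0.72 to -0.43 for SIRT1, -0.70 to -0.60 for SIRT2, 0.27 to 0.56 for SIRT3, 0.20 to 0.53 for SIRT4, 1.37 to 1.53 for SIRT5, 0.29 to 0.83 for SIRT6 and -1.55 to -1.27 for SIRT7, the number of sirtuins called from 4 to 6 and of all genes called from 12063 to 14285. SIRT3 and SIRT6 gained a call without Empty replicate 3.

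The test against a fold change of 2 called 8010 genes in place of 13321, and 2 sirtuins, 4 genes of NAD consumption, 3 SIRT1 regulators, 6 SIRT1 substrates, 7 mitochondrial substrates, 2 SIRT7 partners and 5 zinc-dependent deacetylases, since it asks for more than a difference from 0. At a threshold of 0.01, 4 SIRT7 partners were called. Dividing FPKM by the TMM factor raised the log2 ratio of each sirtuin. It went from -0.80 to -0.62 for SIRT1, -0.84 to -0.68 for SIRT2 and -1.56 to -1.40 for SIRT7. For SIRT3 it went from 0.25 to 0.41, for SIRT4 from 0.17 to 0.34, for SIRT5 from 1.28 to 1.44 and for SIRT6 from 0.37 to 0.52. With a replicate block, 12098 genes and the same number of sirtuins, 4, were called, and SIRT1 had -0.59 (adjusted p = 0.0326) and SIRT5 1.46. Libraries with the same number did not deviate together over the tested genes (correlations of -0.049, -0.025 and -0.0074, and genes are not replicates). A pairing or batch that touches only some genes could not be seen this way and was not tested. Depth limits SIRT4 most, with at most 106 counts in a library.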
